A study of Mus musculus with 6 samples.

Results

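Gata3, the gene targeted in a study of the embryonic mouse lens, was examined with 4930412O13Rik, a transcript of the opposite strand beside it, and with Zfpm1 and Zfpm2, which encode the GATA cofactors FOG1 and FOG2. The 4 genes were taken by symbol from the deposited table of counts. All 4 were among its 13024 genes, and all 4 were among the 12879 genes with 10 or more counts in no fewer than 3 libraries, which were tested.

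RNA-Seq of embryonic lenses (E14.5) compared 3 pools named Gata3 CKO with 3 control pools, all on the strain given as Mixed:C57BL/6 + FVB, and each pool held 10 lenses from 5 embryos. The CKO genotype is Gata3 f/f; Pax6-Cre, with loxP sites on both sides of Gata3 exon 4. The control genotype appears as Gata3 f/wt without Cre in the Results of the study, as Gata3 f/f in its Methods and as wild type in the sample labels, so these pools are called control. The Cre transgene, Pax6-Cre, is active in the ectoderm that forms the lens and the cornea, and also in some retinal cells. Only the CKO pools carried Cre, so an effect of Cre itself cannot be told apart from an effect of the deletion. Replicates carry the numbers of the sample titles. Libraries held 15157230 to 18811104 counted fragments, and values are given as CPM, counts scaled to equal library size by edgeR's TMM factors.

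GATA factors bind DNA at the letters GATA through zinc fingers. The finger nearer the C terminus makes the main contact with DNA, while the finger nearer the N terminus also binds FOG1 and FOG2, multi-zinc-finger proteins that bring the NuRD and CtBP corepressors to the gene. In the lens, Gata3 is found in cells that leave the cell cycle and elongate into fibres, and elsewhere it is known for T helper cells, sympathetic neurons and the inner ear.

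The Gata3 gene is on chromosome 2, reverse strand (GRCm38, 9857078 to 9890034 in GENCODE M21). Its 6-exon transcript of 3215 bases starts at 9878600 and encodes 443 residues. Exon 4, at chr2:9868761-9868906 on the reverse strand, has 146 bases, all of them coding. It is shown because it is the stretch that Cre removes, and the capitals mark the 75 bases that encode the N-terminal zinc finger from its first to its last cysteine (residues 263 to 287).
Gata3 exon 4: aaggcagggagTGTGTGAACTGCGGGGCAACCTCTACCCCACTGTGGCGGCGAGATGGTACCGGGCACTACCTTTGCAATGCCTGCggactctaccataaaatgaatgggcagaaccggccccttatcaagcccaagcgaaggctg
The C-terminal finger (residues 317 to 341) is encoded in exon 5. Joined without exon 4, the transcript keeps the frame for the first 258 residues and then reads 25 other residues up to a stop codon in exon 5, with 0 whole fingers. Of the transcript's bases, 95.5% lie outside exon 4. The deposited value is 1 count per gene over all exons, so it does not show whether fragments of exon 4 were present. The study also measured Gata3 by qPCR, and its primers are shown because they sit elsewhere than a count over the whole gene. They were placed on the same transcript, with bases of exon 4 in capitals.
Forward primer: CTTATCAAGCCCAAGCGAAG
Reverse primer: cattagcgttcctcctccag
The forward primer has all 20 of its bases in exon 4 and the reverse primer lies in exon 5, so that product of 103 bases needs exon 4, unlike the count per gene. The qPCR values were not analysed here.

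Gata3 had more counts in the libraries labelled CKO than in control. Counts of 202 (12.8 CPM), 386 (27.2 CPM) and 156 (8.71 CPM) were found in control replicates 1, 2 and 3. The libraries labelled CKO held 910 (59.0 CPM), 1064 (54.1 CPM) and 894 (46.5 CPM). The groups did not overlap, control replicate 2 was the highest control library, and the lowest library labelled CKO stood above it. Means were 16.2 ± 9.71 CPM (SD, n = 3) in control and 53.2 ± 6.29 CPM (SD, n = 3) in CKO. The log2 fold change of CKO against control was 1.72 (standard error 0.40, 95% confidence interval 0.77 to 2.67), with an adjusted p of 0.650 in edgeR and 0.00163 in DESeq2. Over 17 alternatives the adjusted p ranged from 1.89e-05 to 0.99999. The lower end came from an edgeR fit with the mean of lens fibre genes as covariate, described below and no support. The lowest of the other alternatives was the 0.00163 of DESeq2. Without control replicate 2 the log2 fold change was 2.32. Since most of the transcript lies outside the deleted exon, and the counts do not show where in the gene fragments fell, this value does not check the deletion and gives no ground to doubt the labels. The study looked at the deleted exon itself in its reads, which bear on the labels where a whole-gene count does not. Its qPCR used RNA of independent pools, so it does not check the labels of these libraries. As that count was higher where the label names an inactivation, the samples are called the libraries labelled CKO, or CKO for short, and each direction given is that of these labels.

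**Figure D1:**
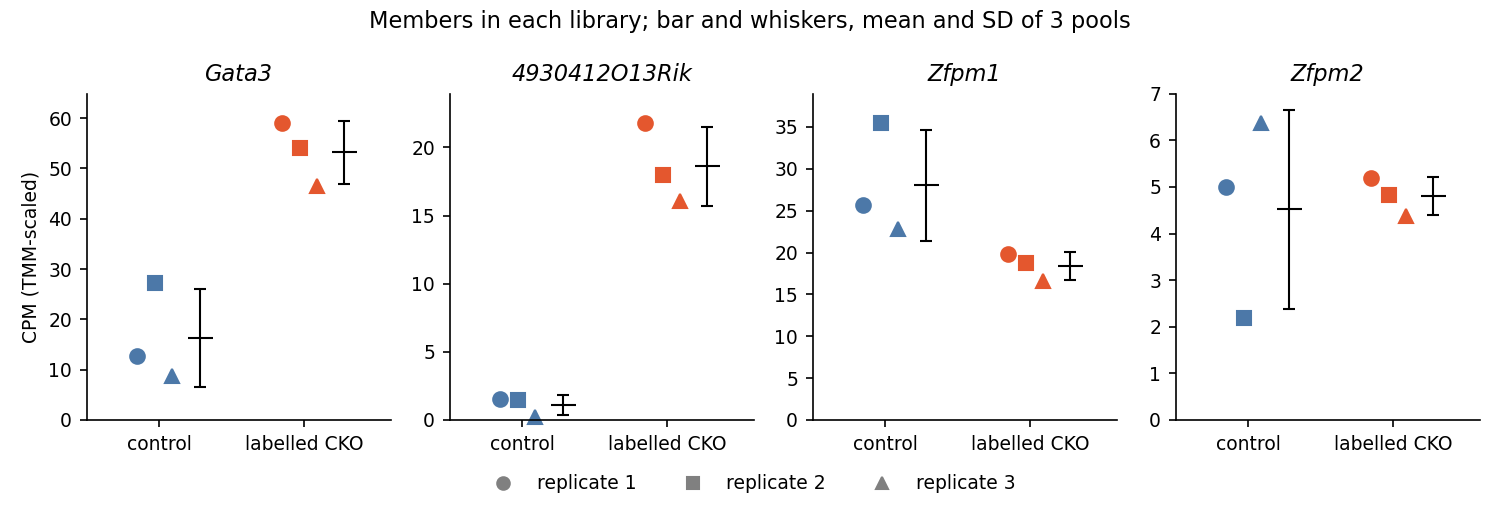
CPM of Gata3, 4930412O13Rik, Zfpm1 and Zfpm2 in each library (symbols mark the replicate number, and the bar with whiskers gives the mean and SD of 3 pools). Gata3 and 4930412O13Rik were higher and Zfpm1 lower in all libraries labelled CKO than in all control libraries, and the groups overlapped for Zfpm2.

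In edgeR, 0 of the 12879 genes tested (0%) passed an adjusted p-value of 0.05, the 4 members included. At an unadjusted p-value under 0.05 edgeR took 457 genes (3.55%), 3 of them members: Gata3, 4930412O13Rik and Zfpm1. DESeq2 called 85 genes (0.66%), of which Gata3 and 4930412O13Rik are members, and limma voom called 0. Groups without overlap and with CKO higher were found for 473 genes (3.67%), including Gata3 and 4930412O13Rik, and with CKO lower for 604 genes (4.69%), including Zfpm1. The members had been picked with such results known, so these counts describe them and test nothing.

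4930412O13Rik, named the antisense transcript of Gata3, is encoded on the forward strand at chr2:9881252-9883921. RefSeq lists it as a long non-coding RNA, and GENCODE lists its 2 transcripts as protein-coding. Its start lies 2652 bases upstream of the start of the 6-exon Gata3 transcript and runs away from it, so those transcripts diverge and do not overlap. It is antisense only to 3 of the 6 Gata3 transcripts, which start up to 11434 bases upstream and span it with an intron. Of its 1381 exon bases, 0 are shared with a Gata3 exon. In GENCODE the biotype antisense belongs to Gm13256, which overlaps the first Gata3 exon and was not analysed here, and neither was 9230102O04Rik, which overlaps 4930412O13Rik. The libraries were strand-specific, but the strand setting used in counting is not given in the sources used here, so fragments of overlapping genes of the other strand may be included.

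**Figure D2:**
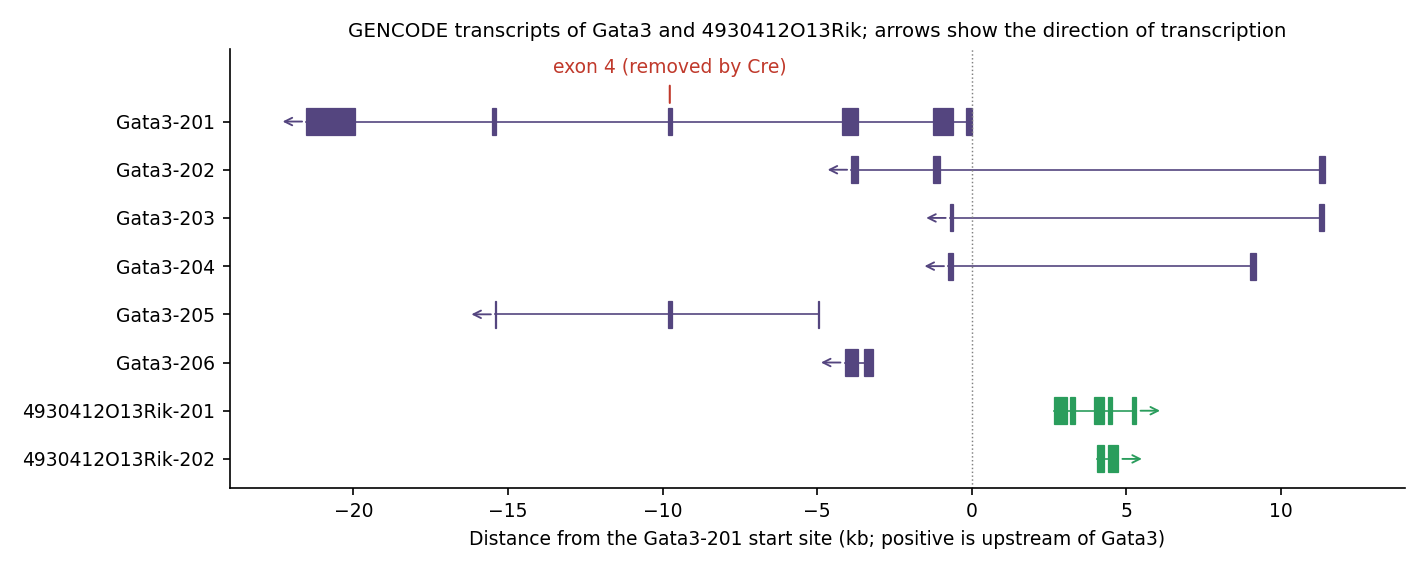
Exons (boxes) of the GENCODE transcripts of Gata3 (purple) and 4930412O13Rik (green) by distance in kb from the start of the 6-exon Gata3 transcript, with arrows for the direction of transcription. 4930412O13Rik starts 2652 bases upstream and points away from Gata3, and exon 4 is the small box that Cre removes.

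4930412O13Rik had the highest log2 fold change towards CKO of all genes tested. Control replicates 1, 2 and 3 held 24, 21 and 4 counts (1.52, 1.48 and 0.223 CPM). The libraries labelled CKO held 336, 354 and 309 counts (21.8, 18.0 and 16.1 CPM). The transcript was close to the limit of detection in control replicate 3 and well counted in all libraries labelled CKO, without overlap of the groups. Its mean was 1.07 ± 0.737 CPM (SD, n = 3) in control and 18.6 ± 2.90 CPM (SD, n = 3) in CKO. The log2 fold change was 4.14 (standard error 0.55, 95% confidence interval 2.82 to 5.45, adjusted p = 0.322 in edgeR and 4.58e-13 in DESeq2). Without control replicate 3 it was 3.63, and then passed in edgeR (adjusted p = 0.0191). Over 17 alternatives the adjusted p ranged from 4.58e-13 to 0.99999.

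A ratio of both counts within a library needs no normalization. Per 100 counts of Gata3 there were 11.9, 5.44 and 2.56 counts of 4930412O13Rik in control replicates 1, 2 and 3. The exact 95% binomial intervals of these ratios were 7.44 to 18.2, 3.33 to 8.44 and 0.690 to 6.70, which cover counting error only. Only the intervals of replicates 1 and 3 did not overlap, and replicate 1 had the highest ratio although replicate 2 had the most Gata3. Among the libraries labelled CKO the ratio was 36.9, 33.3 and 34.6, a narrow range above all control values. Means were 6.63 ± 4.77 (SD, n = 3) and 34.9 ± 1.85 (SD, n = 3) per 100 Gata3 counts. The difference of the mean log2 ratios was 2.59 and is given as a description, since these genes were picked with such results known. An exact permutation test can go no lower than p = 0.1 with 3 against 3, so it could not have passed here.

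Levels of different genes were set side by side per kilobase of exon, with exon lengths from GENCODE. In control, Zfpm1 had 7.99, Gata3 4.08, 4930412O13Rik 0.778 and Zfpm2 0.474 CPM per kilobase. For CKO the levels were 5.24, 13.4, 13.5 and 0.503 CPM per kilobase in the same order of genes. The counts were made on RefSeq genes, and RefSeq gives 4930412O13Rik a span of 5522 bases, which ends beyond the GENCODE model, so its level per length is uncertain. Exon lengths join the exons of all transcripts of a gene. For Zfpm2 these are 9536 bases, with retained introns included, against 5791 bases in its longest coding transcript. The level of Zfpm2 per length, and its place below 4930412O13Rik in control, are thus uncertain too.

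Promoter windows of 250 bases before the start were found in RefSeq for 3 of the 4 members, all but Zfpm2. They were searched on both strands for the GATA letters AGATAA or AGATAG or TGATAA or TGATAG, and for the letters TGACTCA or TGACGTCA, which Jun binds with its partners. The letters TGACGTCA were chosen after the sequences had been seen. The windows of Gata3 (GRCm38, chr2:9878601-9878850, reverse strand) and 4930412O13Rik (GRCm38, chr2:9880996-9881245, forward strand) are shown because these genes of 1 locus were higher in the same libraries, with any match in capitals.
Gata3 promoter: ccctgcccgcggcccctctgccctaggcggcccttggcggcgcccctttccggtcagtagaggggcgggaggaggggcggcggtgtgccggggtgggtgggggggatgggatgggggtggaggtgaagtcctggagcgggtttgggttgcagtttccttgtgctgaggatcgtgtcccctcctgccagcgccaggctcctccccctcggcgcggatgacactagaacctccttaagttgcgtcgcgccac
4930412O13Rik promoter: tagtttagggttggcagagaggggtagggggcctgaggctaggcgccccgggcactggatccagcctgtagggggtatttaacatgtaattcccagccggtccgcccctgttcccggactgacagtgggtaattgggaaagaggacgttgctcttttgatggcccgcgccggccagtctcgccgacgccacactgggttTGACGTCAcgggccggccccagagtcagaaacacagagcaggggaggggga
None of the 3 windows held the GATA letters, which 26.5% of 32851 such windows hold, and none held TGACTCA, which 4.46% hold. TGACGTCA was found once, in the 4930412O13Rik window, beginning 51 bases before the start, and 1.55% of all windows hold it. G or C made up 70.0% of the Gata3 window and 62.4% of the 4930412O13Rik window.

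Gata3 followed the lens fibre genes closely among the control pools. The list of fibre genes holds crystallins, the filament proteins Bfsp1 and Bfsp2, membrane proteins such as Mip and Lim2, the connexin Gja3, and the factors Hsf4, Sox1, Maf and Prox1, and 28 of its 29 genes were tested. Gata3 was highest in control replicate 2 and lowest in replicate 3, and all 28 fibre genes stood in that order. Over all genes tested 3824 did (29.7%), the most frequent of the 6 possible orders with TMM scaling. With library totals only, the share of all genes was 15.2%. The order also held for all 4 genes of the lens epithelium list (Foxe3, Cdh1, Gja1 and Pdgfra), for 1 of 15 FOG corepressor genes and for 0 of 7 retina genes. Outside the lens it was shared by 5 of 6 erythroid and megakaryocyte genes, 4 of 5 macrophage genes, 3 of 4 vessel genes and 2 of 9 surface ectoderm genes, so it was not particular to lens genes. None of the 8 mesenchyme and 5 pigment cell genes had it. Zfpm1 shared it, whereas 4930412O13Rik was highest in replicate 1 and Zfpm2 in replicate 3.

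The distance between the pools was of the same size too. Between control replicates 2 and 3, Gata3 differed by 1.59 on the log2 scale. The fibre genes differed by 1.15 to 1.88, with a median of 1.54, and 11 of the 28 differed by more than Gata3. The 4 lens epithelium genes differed by 0.79 to 1.51, with a median of 1.41, so a distance near this size was not particular to fibre genes. Over all genes tested the median was 0.021, and 84 of 12879 genes differed by more than Gata3 in that direction. Zfpm1 differed by 0.62, less than any fibre gene.

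**Figure D3:**
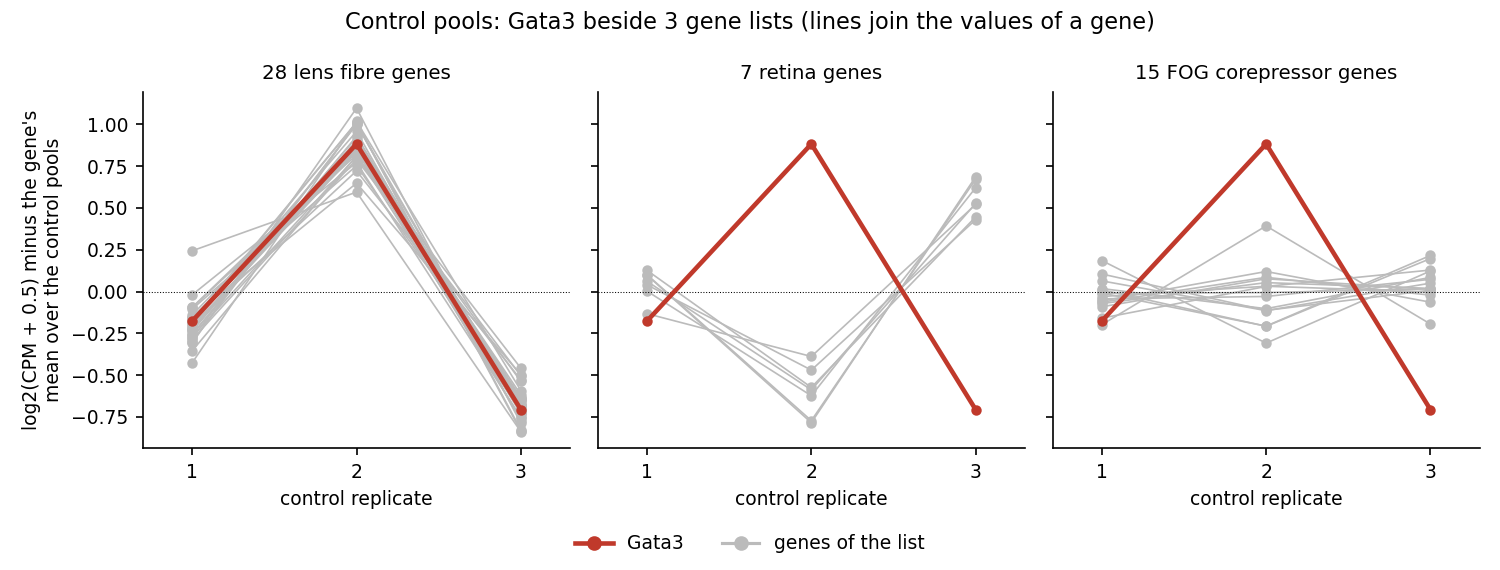
Log2(CPM + 0.5) of Gata3 (red) and of each gene of 3 lists (grey) in the control pools, as the difference from the gene's own mean over these pools. Gata3 runs among the 28 fibre genes, against the 7 retina genes, and in replicates 2 and 3 beyond the range of the 15 FOG corepressor genes.

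As the difference between Gata3 and the mean of the fibre list on the log2(CPM + 0.5) scale, the control pools gave -5.31, -5.31 and -5.36. Their whole range was 0.052, although the fibre mean itself ranged over 1.54 and Gata3 over 1.59. The libraries labelled CKO gave -2.36, -2.17 and -2.15, a range of 0.21 while the fibre mean ranged over 0.55 and Gata3 over 0.34. Each group was thus tight and the groups lay far apart. Group means were -5.33 ± 0.029 (SD, n = 3) and -2.23 ± 0.12 (SD, n = 3), a difference of 3.10. It is given as a description, since the likeness of Gata3 to the fibre genes was known when it was chosen. It was 3.07 with the 15 fibre genes that are not crystallins and 3.14 with the 13 crystallins alone.

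**Figure D4:**
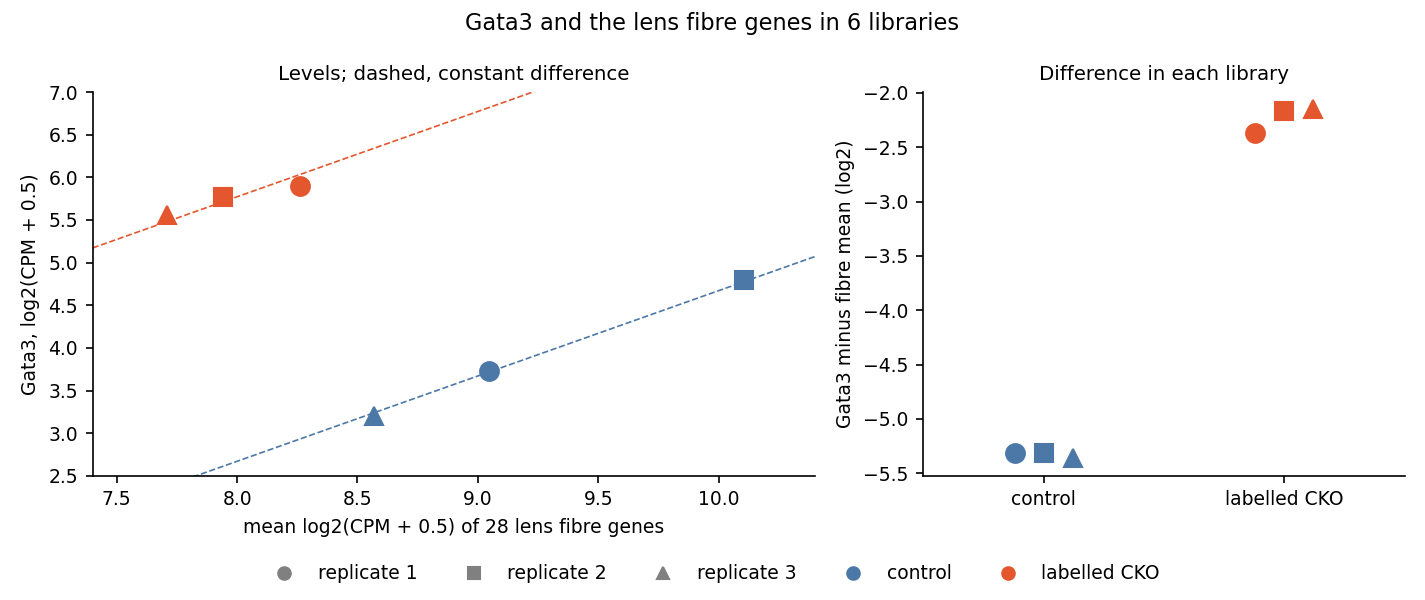
Left, Gata3 against the mean of 28 lens fibre genes, both as log2(CPM + 0.5), in each library, with dashed lines of constant difference through each group's mean. Right, the difference in each library, from -5.36 to -5.31 in control and from -2.36 to -2.15 in the libraries labelled CKO.

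The fibre list was itself lower in the libraries labelled CKO, which adds to this difference. All 28 genes had negative log2 fold changes, with a median of -1.18 against 0.0019 over all genes tested, and 16 had all CKO values below all control values. Without control replicate 2, an alternative added after seeing the data, the median was -0.63, with 22 genes lower and 6 higher. In edgeR 0 of the 28 passed, 17 had an unadjusted p-value under 0.05 and were lower, and DESeq2 called 10. Cryba1, the most abundant, was at 17192 ± 9314 CPM (SD, n = 3) in control and 9201 ± 1684 CPM (SD, n = 3) in CKO. Dnase2b, the nuclease that degrades DNA in maturing fibres, had the largest fold change, from 14.3 ± 7.65 (SD, n = 3) to 0.582 ± 0.348 CPM (SD, n = 3). In pooled tissue, fewer fibre cells and less RNA of these genes per cell cannot be told apart.

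A fit in edgeR with the fibre mean, centred within each group, as a covariate called 265 genes, with Gata3 (log2 fold change 1.87), 4930412O13Rik (4.23) and Zfpm1 (-0.59) among them. The covariate was chosen with the likeness of Gata3 to the fibre genes known, so these calls are a description and no support.

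Genes most like Gata3 were sought by Pearson's r over the log2 CPM of the 6 libraries, among 11600 genes with a mean of at least 5 CPM. The closest were Itga6 (r = 0.995), which encodes a laminin-binding integrin, Abcb1b (r = 0.993), a drug transporter, and Tacr1 (r = 0.990), a neurokinin receptor. Next came Rnf141, Dgkg, Prkg1, Cdkn1a, Eva1a, Clstn2 and Arhgef19, down to r = 0.986. For comparison, 4930412O13Rik had r = 0.947 with Gata3, and the fibre genes of this range had a median r of -0.38 against -0.039 over all genes. Over the deviations from the group means the picture turned, and the median r of the 26 fibre genes was 0.98, against 0.030 over all genes. By that measure the 4 lens epithelium genes had a median r of 0.89 and Zfpm1 had 0.98, so this likeness was not particular to fibre genes. Among the closest by that measure were Metrnl, Mocs2, Hist1h2bc, Gas7 and Smco3, followed by Gabarapl1, Sfrp1, Heatr5b, Cdc42se1 and Gas6, down to r = 0.998. These values describe 6 libraries of 3 control and 3 CKO pools, and were not recomputed with a library left out.

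For 4930412O13Rik the closest genes over the 6 libraries were Atp10d (r = 0.993), Mad2l1bp (r = 0.991) and Dync2li1 (r = 0.990), then Parn, C1galt1c1, Cpne2, AI506816, Ddah1, Megf10 and Rian, down to r = 0.973. Over deviations from the group means Senp6 (r = 0.996) led, followed by Hspa1a, Rabepk, Mrpl35, Aars2, Josd1, Cyfip1, Narfl, Nme3 and Ccnl1. No gene was named for both members by the same measure.

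Zfpm1 encodes FOG1, the cofactor first known from red blood cells and megakaryocytes, and lies on chromosome 8 (GRCm38, 122282141 to 122337251, forward strand). Control replicates 1, 2 and 3 had 406, 503 and 409 counts of Zfpm1 (25.7, 35.4 and 22.8 CPM). The libraries labelled CKO gave 306, 368 and 318 counts (19.8, 18.7 and 16.5 CPM). The groups did not overlap, with CKO lower, and control replicate 2 was the highest library. The mean was 28.01 ± 6.60 CPM (SD, n = 3) in control and 18.4 ± 1.67 CPM (SD, n = 3) in CKO. The log2 fold change was -0.61 (standard error 0.18, 95% confidence interval -1.03 to -0.18, adjusted p = 0.979 in edgeR and 0.314 in DESeq2), and -0.39 without control replicate 2. Over 17 alternatives the adjusted p ranged from 0.00942, in the edgeR fit with the fibre mean as covariate, to 0.99999. The lowest of the other alternatives was the 0.314 of DESeq2.

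Zfpm2, which encodes FOG2, known from heart and gonad development, lies on chromosome 15 (GRCm38, 40655035 to 41104592, forward strand). Control replicates 1, 2 and 3 held 79, 31 and 114 counts (5.01, 2.18 and 6.37 CPM). In CKO there were 80, 95 and 84 counts (5.19, 4.83 and 4.37 CPM). The control values enclosed all values of the libraries labelled CKO, with control replicate 2 lowest. Means were 4.52 ± 2.13 CPM (SD, n = 3) and 4.80 ± 0.409 CPM (SD, n = 3), and the log2 fold change was 0.078 (standard error 0.38, 95% confidence interval -0.82 to 0.97, adjusted p = 0.9998 in edgeR). The direction turned without control replicate 2, at -0.24. The cofactors thus ran opposite ways among the control pools, Zfpm1 with the fibre genes and Zfpm2 with the retina genes, which were also highest in replicate 3 and lowest in replicate 2. That order is common, with 3812 of all genes tested (29.6%).

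Of the corepressors that FOG proteins bring to DNA, NuRD and CtBP, all 15 listed genes were tested and 0 passed in edgeR or DESeq2 (0 also at an unadjusted p-value under 0.05). Chd4, the remodelling ATPase of NuRD, was the most abundant, at 911 ± 40.7 CPM (SD, n = 3) in control and 918 ± 33.3 CPM (SD, n = 3) in CKO. Log2 fold changes ran from -0.13 for Gatad2a to 0.16 for Mta1, and the median was 0.038, or 0.013 without control replicate 2. None of the 15 separated the groups.

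Of 9 partners and coactivators of GATA factors, 7 were tested, all but Runx1 and Tal1, and 0 passed in edgeR or DESeq2, also at an unadjusted p-value under 0.05. Ldb1, a bridging protein of GATA complexes, was the most abundant, with 206 ± 15.1 CPM (SD, n = 3) in control and 224 ± 5.75 CPM (SD, n = 3) in CKO and no overlap of the groups. The median log2 fold change was 0.046, from -0.43 for Fli1 to 0.12 for Ldb1, and the median was -0.033 without control replicate 2.

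Of 7 other genes of the GATA family only Gata2, Trps1 and Zglp1 had a row, and 0 of these 3 passed in edgeR or DESeq2, also unadjusted. Gata2 had 2.5 ± 0.767 CPM (SD, n = 3) in control and 2.93 ± 1.82 CPM (SD, n = 3) in CKO. Trps1, a GATA-type repressor and the most abundant of these, had 31.3 ± 2.79 and 33.2 ± 0.234 CPM (SD, n = 3). Per kilobase of exon in control, Gata3 (4.08 CPM) was above Trps1 (2.34), Zglp1 (1.64) and Gata2 (0.464).

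A list of regulators held Jun and Prox1, which the study placed at the Gata3 locus. It also held Smad1, Smad5 and Smad9, which the study placed there together through a shared antibody. Also listed were Etv5, which the study assayed at that locus, the relatives Smad4 and Etv1, and Pax6, which it did not place there. All but Smad9 had a row, 8 tested of 9 listed. None passed in edgeR or DESeq2, also unadjusted, and their median log2 fold change was 0.014, or 0.030 without control replicate 2. Pax6, a factor needed for eye formation, was the most abundant, at 636 ± 33.6 CPM (SD, n = 3) in control and 617 ± 30.6 CPM (SD, n = 3) in CKO. The largest fold changes were 0.18 for Jun, with no overlap of the groups, and -0.15 for Prox1, which is also in the fibre list.

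Cdkn1b, Cdkn1c, Dnase2b and Bfsp2 were listed because the study places them downstream of Gata3 in lens. For Dnase2b and Bfsp2 that placing rests in part on these libraries. For Cdkn1b and Cdkn1c it rests on protein staining and on Gata3 binding at these genes, not on RNA of these libraries. Of these 4 genes, all tested, Dnase2b and Bfsp2 also belong to the fibre list, and 0 passed in edgeR. At an unadjusted p-value under 0.05 both of these were lower, and DESeq2 called both. Cdkn1c, the cell cycle inhibitor p57 and the most abundant, was at 642 ± 296 CPM (SD, n = 3) in control and 413 ± 33.3 CPM (SD, n = 3) in CKO, with overlap. Cdkn1b, the inhibitor p27, was at 110.1 ± 6.98 and 117 ± 1.96 CPM (SD, n = 3), also with overlap. The median log2 fold change of the 4 was -1.10, and -0.63 without control replicate 2.

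Most of the listed GATA3 target genes of other tissues had no row in the table, which holds only genes with a mean FPKM above 1 in at least 1 group. Of 9 listed, only Ret and Th had a row, and 0 passed in edgeR or DESeq2, also unadjusted. Ret, a receptor kinase of sympathetic and retinal neurons, was at 46.5 ± 25.9 CPM (SD, n = 3) in control and 44.5 ± 12.1 CPM (SD, n = 3) in CKO. Its control pools stood in the order of the retina genes, with replicate 3 highest and replicate 2 lowest. Th had 2.13 ± 1.07 and 2.28 ± 0.464 CPM (SD, n = 3). The median log2 fold change of the pair was 0.011, and -0.32 without control replicate 2.

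4930412O13Rik is the gene of the table nearest to Gata3, and the next ones on each side had small fold changes. Taf3, whose nearer end lies 24518 bases from the Gata3 gene, had 39.9 ± 2.51 CPM (SD, n = 3) in control and 41.5 ± 0.374 CPM (SD, n = 3) in CKO. On the other side the nearest was Celf2, at 2347515 bases. Of the 10 neighbours other than 4930412O13Rik (Celf2, Usp6nl, Echdc3, Proser2 and Upf2 on that side, Taf3, Atp5c1, Kin, Itih2 and Itih5 on the other), 9 were tested and 0 passed in edgeR or DESeq2, also unadjusted. Their log2 fold changes ran from -0.17 for Echdc3 to 0.22 for Itih5 with a median of 0.018, and Kin alone had groups without overlap.

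**Figure D5:**
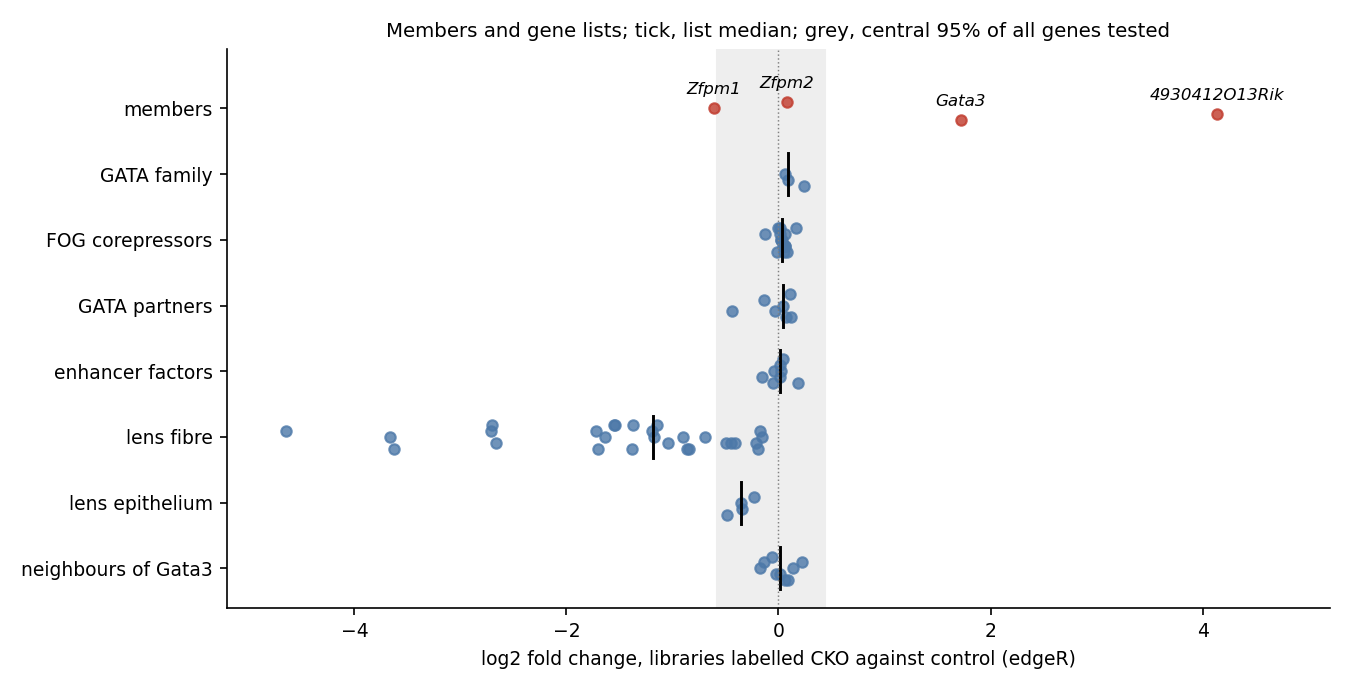
Log2 fold changes of the 4 members (red) and of gene lists (blue; the tick is the median), with the central 95% of all genes tested in grey (-0.58 to 0.44). 4930412O13Rik at 4.14 and Gata3 at 1.72 lie far above that range, the fibre genes reach below it, and the FOG corepressors and the neighbours lie inside it.

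Markers of other cells that a dissected lens can carry were present and uneven. Control replicates 1, 2 and 3 had a summed CPM of 950.0, 606 and 1313 over 7 retina genes, and CKO replicates 1, 2 and 3 had 977, 899.9 and 1219, with a median log2 fold change of 0.15, and of -0.094 without control replicate 2. For 8 mesenchyme genes tested of 9 it was 2114, 426 and 222 in control and 220.4, 3814 and 460 in CKO, with Col1a2 most abundant, no row for Foxc2 and a median log2 fold change of 0.63, and of 0.23 without control replicate 2. Retina sums were therefore lowest where Gata3 and the fibre genes were highest within control, and mesenchyme was highest in control replicate 1 and CKO replicate 2. The 5 pigment cell genes, led by Pmel, summed to 309, 67.3 and 53.3 CPM in control and 71.6, 313 and 60.6 CPM in CKO (median log2 fold change 0.061, and -0.27 without control replicate 2), and were highest in the same libraries as mesenchyme. The part of these cells in the levels of the 4 members was not tested.

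Cells known to use GATA3 or FOG1 were looked at too. Erythroid and megakaryocyte genes, 6 tested of 10, summed to 544, 1281 and 352 CPM in control and 287, 417 and 405 CPM in CKO, led by Hbb-y, with no row for Hba-a1 and a median log2 fold change of -0.68, and of -0.27 without control replicate 2. Klf1, an erythroid transcription factor, was at or under 2.72 CPM in every library. Lymphocyte markers, 4 listed, and the sympathetic marker Dbh had no row in the table. Surface ectoderm genes, 9 of 9 tested and led by Tfap2b, summed to 194, 130.4 and 102 CPM in control and 112, 269.8 and 126 CPM in CKO, and their median log2 fold change was 0.29. Sums of erythroid, surface ectoderm and all other marker lists outside the lens overlapped between the groups.

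For vessels, 4 genes led by Kdr summed to 272, 251 and 219 CPM in control and 197, 234 and 199 CPM in CKO, and their median log2 fold change was -0.31. For macrophages, 5 genes led by Csf1r gave 96.3, 123 and 66.2 CPM in control and 59.9, 80.0 and 60.0 CPM in CKO, with a median of -0.47, and of -0.27 without control replicate 2. Of all these markers outside the lens, 0 passed in edgeR or DESeq2, and C1qa of the macrophages was the only gene with an unadjusted p-value under 0.05 (log2 fold change -0.79). Lens epithelium genes, 4 of 4 tested and led by Gja1, had a median log2 fold change of -0.35, and 0.12 without control replicate 2.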

How the data were processed

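RNA-Seq counts of 6 pools of lenses were analysed. The authors trimmed the reads with Trim Galore, aligned the read pairs of these strand-specific libraries to mm10 with TopHat2 2.0.13 and counted fragments per RefSeq gene with HTSeq 0.6.1, per the submitters' processing notes and the study's methods. They deposited raw counts for genes with a mean FPKM (Cuffdiff 2.2.1) above 1 in at least 1 of the groups. How strand and overlaps were set in counting is not given in the sources used here. CKO titles number the libraries 1 to 3 and their descriptions number them 2 to 4, and the title numbers are used.

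Counts were scaled by TMM and tested over the whole table by edgeR 4.0.16 in R 4.3.3 (quasi-likelihood, robust) with Benjamini-Hochberg adjustment at 0.05, for genes with 10 or more counts in no fewer than 3 libraries. The test was tried on simulated data. Log2 CPM had an offset of 0.5. Differences of single values are given without a test, since an exact two-sided permutation test of 3 against 3 gives no p under 0.1. DESeq2 1.42.0, limma voom (limma 3.58.1), other normalizations and filters, the title number as a block, the fibre mean as a covariate and each library left out were alternatives. With 3 pools a group, the spread between pools limits the precision.

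Positions, exon lengths and transcripts came from GENCODE M21 and promoters from RefSeq (GRCm38.p6). From a list, the genes named are those that pass the test, otherwise the most abundant and those with the largest fold change in each direction. Beyond that rule Gata2, Cdkn1b, Taf3 and Klf1 were named after their values were seen. The members and lists were chosen with earlier results of these data known. No libraries of 1 group differed by only the sampling noise.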

Additional observations from a re-analysis of the deposited data

How the results depend on the processing

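Gata3 and 4930412O13Rik were higher and Zfpm1 lower in the libraries labelled CKO under all 17 alternatives tried for each, and the adjusted p stayed above 0.05 in 14, 13 and 16 of them. The number of genes called was 0 in edgeR, 85 with DESeq2, 79 with DESeq2 and a prior on fold changes, 1 with library totals only (where the median log2 fold change of all genes moved to 0.10), 265 with the fibre mean as covariate, and 0 to 1 with each library left out. With DESeq2 the log2 fold change was 1.72 for Gata3 and 4.14 for 4930412O13Rik, and with the prior 0.56 and 0.78, and both passed. With the fibre mean as covariate, chosen with its likeness to Gata3 known, Gata3 (1.87), 4930412O13Rik (4.23) and Zfpm1 (-0.59) passed. With each library left out, the log2 fold change was 1.41 to 2.32 for Gata3, 3.63 to 4.52 for 4930412O13Rik, -0.74 to -0.39 for Zfpm1 and -0.24 to 0.41 for Zfpm2, which turned only without control replicate 2. The cause was not tested. Libraries with the same title number did not all deviate together from their group means, so the numbers were not taken as pairs. Their correlations were -0.51, 0.090 and 0.48 for numbers 1, 2 and 3. With the title number as a replicate block edgeR called 0 genes. The log2 fold changes were then 1.86 for Gata3, 4.26 for 4930412O13Rik, -0.59 for Zfpm1 and 0.18 for Zfpm2. By arithmetic the block leaves the difference of Gata3 relative to the fibre genes at 3.10, so it is no check of that value. That difference was 2.65 with a prior of 5 in place of 0.5, and 3.06 to 3.17 with each library left out. The difference of the log2 ratio of 4930412O13Rik to Gata3 was 2.67 with 0 added and 2.09 to 3.13 with each library left out. Leaving out control replicate 2, added after seeing the data, turned the median log2 fold changes of the lens epithelium (0.12), GATA partner (-0.033), other-tissue target (-0.32), retina (-0.094) and pigment cell (-0.27) lists. All 28 fibre genes kept the order of Gata3 among control pools with library totals only, where 15.2% of all genes did. Control pools held only 4 to 24 counts of 4930412O13Rik, and their exact intervals per 100 Gata3 counts did not all overlap.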
